A study of Mus musculus with 6 samples.

Results

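The clustered histone genes were compared between long-term hematopoietic stem cells (LT-HSCs) lacking latexin and LT-HSCs with intact latexin. Members were the probe sets of which every gene symbol on the platform belongs to a gene with an older name of the Hist1h to Hist4h series. The platform lists these genes under their current names, so the older names were read from the RefSeq gene table through Entrez identifiers. Of 70 genes with such an older name, 55 lay in a matching probe set. The rule gave 55 probe sets, of which 2 duplicated the values of another, and so 53 distinct members among the 23410 probe sets with a gene symbol. They comprised 5 probe sets for H1, 5 for H2A, 17 for H2B, 13 for H3 and 12 for H4, and 1 that lists both an H2B and an H1 gene, H2bc6/H1f4, and counts in no class. Another 3 probe sets that also list other genes were left out.

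The arrays measured Lxn-/- LT-HSCs, in which exons 2 to 4 of the latexin gene are deleted and no latexin protein is made, and WT LT-HSCs with intact latexin. Latexin is an inhibitor of metallocarboxypeptidases. All mice were C57BL/6 females aged 8 to 12 weeks, and the cells were sorted from bone marrow as Lin- Sca1+ c-Kit+ CD34- and negative for a marker written Flt2 in the labels. Each genotype had 3 pools of about 100000 cells from 10 to 20 mice, each measured on 1 array, so that p-values measure the spread between pools and precision is limited by the small number of arrays.

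Clustered histone genes supply the bulk of the histone protein that packages newly copied DNA, and they are transcribed mainly during S phase. Their mRNAs usually have no introns and end in a stem-loop in place of a poly(A) tail, and the stem-loop binding protein SLBP governs their processing, translation and decay. The core histones H2A, H2B, H3 and H4 form the nucleosome, and H1 binds the DNA between nucleosomes. LT-HSCs are mostly quiescent, and histone mRNA in a pool of them depends both on how many cells are in S phase and on how much each cell holds. In bulk samples such as these, fewer cells of a type and less RNA per cell cannot be told apart.

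Most clustered histone genes lie on chromosome 13, with smaller clusters on chromosomes 3 and 11 and a single H4 gene on chromosome 6. Nearly identical coding sequences mean that many cannot be measured singly on an array. Exactly 1 gene was listed for 31 members and several for 22. The same 12 H3 genes were listed for 10 H3 probe sets, the same 11 H4 genes for 4 distinct H4 probe sets, and 14 or 15 H2B genes for 6 H2B probe sets. The 53 members thus stand for 37 distinct sets of genes, 5 for H1, 5 for H2A, 13 for H2B, 4 for H3 and 9 for H4, and probe sets that list the same genes are not independent of each other.

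The promoters of 3 members are shown as examples of known promoter letters, and not as typical of their classes. H2bc8 holds all the motifs searched and has its H2A neighbour in the same window, H4c3 had the most negative difference among H4 members, and H3c15 had the most positive of all members. The windows run from 250 bases before to 50 bases after the start of the gene, 5′ to 3′ on the gene's strand, from RefSeq on GRCm38.p6. Capitals mark matches to TATAAA (the TATA box), CCAAT (the CCAAT box) and TTTGCAT (7 letters of the octamer element of H2B promoters), searched on both strands, so that their reverse complements are in capitals too. H2bc8 is at chr13:23571150-23571449 on the plus strand, H4c3 at chr13:23698409-23698708 on the minus strand and H3c15 at chr3:96239078-96239377 on the minus strand.
H2bc8: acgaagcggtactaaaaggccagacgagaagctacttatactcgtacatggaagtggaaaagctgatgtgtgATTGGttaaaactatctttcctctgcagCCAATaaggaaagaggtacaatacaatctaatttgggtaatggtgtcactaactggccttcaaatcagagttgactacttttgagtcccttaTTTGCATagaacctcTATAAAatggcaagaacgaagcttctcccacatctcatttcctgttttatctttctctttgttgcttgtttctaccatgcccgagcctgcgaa
H4c3: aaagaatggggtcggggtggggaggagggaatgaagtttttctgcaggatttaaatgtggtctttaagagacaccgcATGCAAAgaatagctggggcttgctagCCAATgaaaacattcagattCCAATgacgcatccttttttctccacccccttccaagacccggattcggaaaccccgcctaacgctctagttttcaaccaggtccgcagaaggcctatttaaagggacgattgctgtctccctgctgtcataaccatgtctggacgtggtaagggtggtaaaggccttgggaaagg
H3c15: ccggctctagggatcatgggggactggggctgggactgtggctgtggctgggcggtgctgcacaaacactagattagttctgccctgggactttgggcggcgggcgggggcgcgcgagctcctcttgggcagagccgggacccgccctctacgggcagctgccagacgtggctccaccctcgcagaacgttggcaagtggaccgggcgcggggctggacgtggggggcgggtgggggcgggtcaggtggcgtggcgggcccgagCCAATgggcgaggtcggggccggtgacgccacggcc

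Of the 55 genes in member probe sets, 49 matched a promoter entry, and the table holds 63 windows for 62 clustered histone genes in all. TATAAA was found in 55.6% of these windows and in 13.6% of the 32851 promoter windows in the table. CCAAT was in 85.7%, against 37.4% of all promoters, and it was in every H1, H2A, H2B and H3 window but only 25% of the H4 windows. TTTGCAT was in 41.2% of the H2B windows, 38.9% of the H2A windows, 8.33% of the H4 windows and no H1 or H3 window, against 4.63% of all promoters. The H4c3 window shown is not typical of H4. Of the 12 H4 windows it is the 1 with TTTGCAT and 1 of 3 with CCAAT, and it lacks the TATAAA that 8 hold. In H3c15 the 1 CCAAT match lies after the start of the gene, at base 15. None of the 203 matches overlapped a match to another motif. Of 13 adjacent pairs of an H2A and an H2B gene, 11 had the strand of both genes in the table, and 10 of these were transcribed away from each other from a shared stretch of promoter, and the windows of H2ac8 and H2bc8 share 279 bases.

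The arrays differed little from one another as wholes. Over all named probe sets, arrays correlated at 0.994 to 0.996 within Lxn-/-, at 0.994 to 0.997 within WT and at 0.993 to 0.997 between genotypes, and the log2 median of all probe sets was 7.86 to 7.91 in Lxn-/- and 7.77 to 7.90 in WT. Lxn itself, the check of the labels, had a log2 signal of 8.66, 8.78 and 8.78 in Lxn-/- and 8.99, 9.09 and 9.55 in WT. No Lxn-/- value reached the WT range, as in 5.38% of the named probe sets in that direction. The difference was -0.47 (SE 0.14), with an adjusted p of 0.993 in limma over all named probe sets, so Lxn did not pass the test either. The exact permutation p was 0.1, which 3 arrays against 3 cannot go below. The sources used here do not say where its probes lie relative to the deleted exons. All 8 measured LT-HSC markers of 10 listed, among them Procr, Kit, Hlf and Mecom, had mean signals above 6.93. This is the 95th percentile of odorant and vomeronasal receptor probe sets, which serves here as a bound for dim probe sets. At or above it were also 69.6% of all named probe sets and all measured erythroid, B cell and neutrophil markers.

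No clustered histone gene differed between Lxn-/- and WT LT-HSCs by the test over all named probe sets. In limma 0 of 53 members passed an adjusted p of 0.05, as did 0.0% of the 23410 named probe sets, and every member had an adjusted p of 0.993 or higher. At an unadjusted p under 0.05 there was 1 member, H2bc4, beside 3.9% of the named probe sets, 1.47% higher and 2.43% lower in Lxn-/-. H2bc4 was also the 1 member whose Lxn-/- and WT values did not overlap, against 8.98% of the named probe sets.

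Most members had a slightly lower mean in Lxn-/- than in WT. The difference was negative for 37 of 53 members, or 69.8%, beside 54.5% of all named probe sets. The median member differed by -0.033 on the log2 scale, against -0.0099 over all named probe sets, and single members ranged from -0.19 to 0.26. With all arrays set to a common median, 45 of 53 were lower, but the median of all named probe sets moved down too, to -0.055. Without Lxn-/- replicate 1 only 23 members were lower. Of the 31 members listing exactly 1 gene, 21 were lower and their median was likewise -0.033.

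Confidence intervals of members were about as wide as those of other probe sets. The 95% confidence interval of the difference lay within 0.5 log2 units of 0 for 51 of 53 members. This is 96.2%, against 93.2% of all named probe sets. It lay within 0.25 for 25 members, against 10286 of the 23410 named probe sets. Of these 25 members, 18 list several genes and 7 list 1 gene. The exceptions to the wider bound were H2ac4 and H3c15. The median half-width of the interval was 0.191, against 0.194 over all named probe sets. For 50 members the 3 Lxn-/- arrays spread over a wider range than the difference between genotypes, which is 94.3% against 86.3% of all named probe sets. For 45, or 84.9%, the WT arrays did, against 86.9% of all named probe sets.

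**Figure D1:**
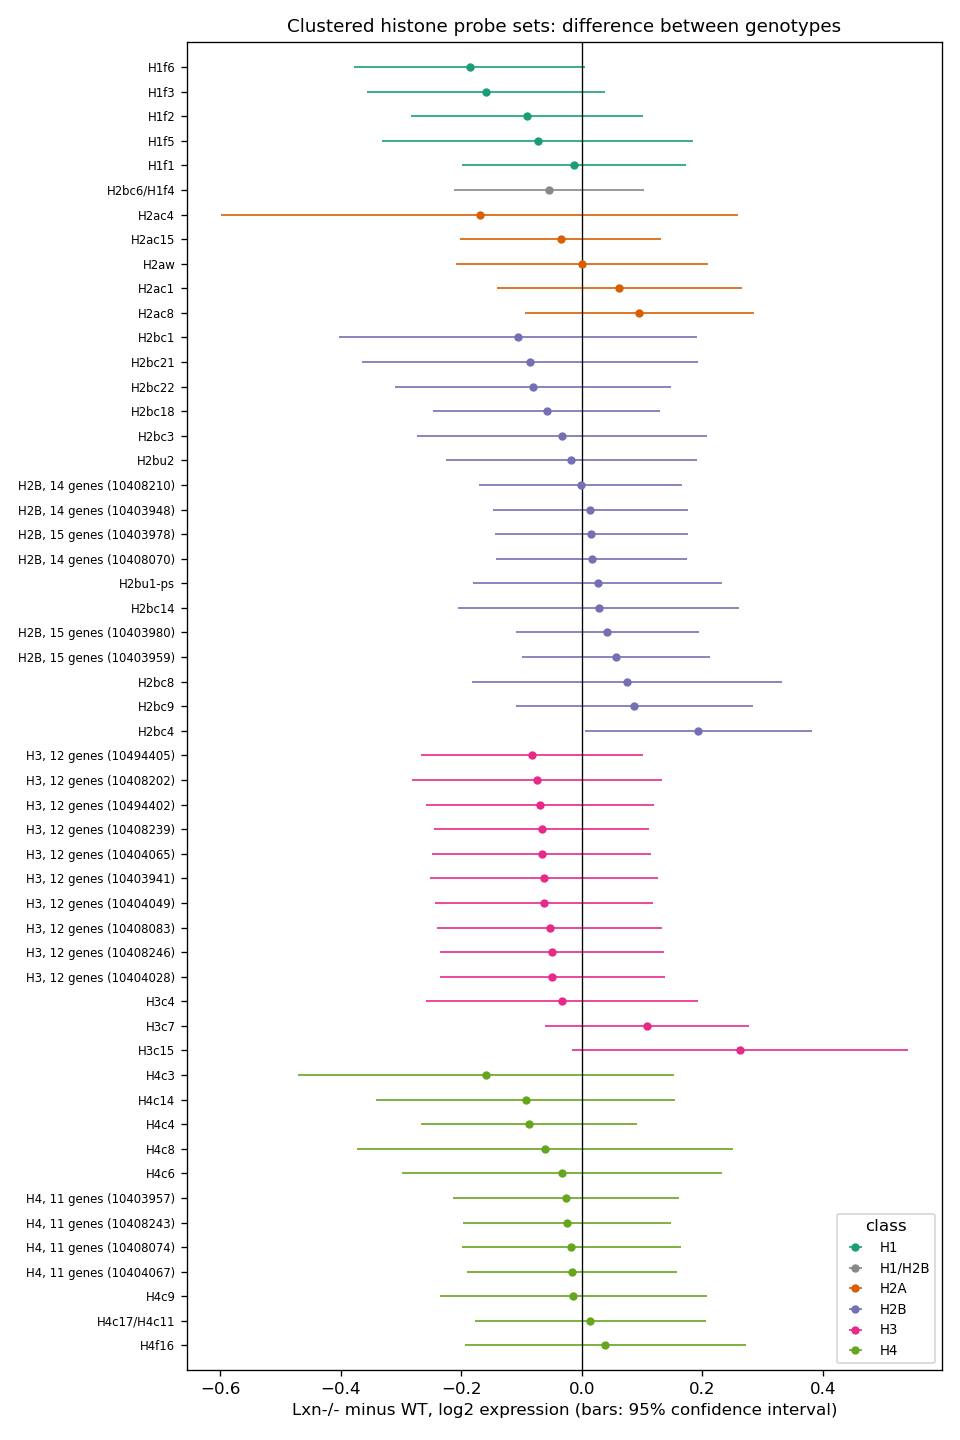
Difference between Lxn-/- and WT LT-HSCs (log2 signal, Lxn-/- minus WT) for the 53 clustered histone members, grouped by histone class, with 95% confidence intervals from limma. Differences run from -0.19 to 0.26, H2bc4 is the 1 member with an unadjusted p under 0.05, and none passed the adjusted test.

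Linker histones (H1) were the class in which every member had a lower mean in Lxn-/-. All 5 H1 probe sets, each listing 1 gene, had negative differences, with a median of -0.091, and 0 of 5 had values that did not overlap between genotypes. H1f6, the testis-specific linker histone H1t, had a log2 signal of 6.78, 6.71 and 6.74 in Lxn-/- and 7.03, 6.98 and 6.77 in WT. Its WT replicate 3 lay among the Lxn-/- values, and its mean over all arrays lay below the bound for dim probe sets. The difference was -0.19 (SE 0.083, 95% confidence interval -0.38 to 0.006), with an exact permutation p of 0.2.

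H1f3, the somatic linker histone H1.3, had 7.86, 7.76 and 7.89 in Lxn-/- and 8.13, 7.86 and 8.01 in WT. WT replicate 1 was the highest array and WT replicate 2 lay among the Lxn-/- values, for a difference of -0.16 (SE 0.086). H1f5, the somatic subtype H1.5, had 11.53, 11.63 and 11.23 in Lxn-/- and 11.62, 11.42 and 11.55 in WT. The Lxn-/- values held both the highest and the lowest array, and the difference of -0.074 (SE 0.11) was smaller than the spread within Lxn-/-.

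H1f1, the subtype H1.1, had 12.21, 12.25 and 12.10 in Lxn-/- and 12.07, 12.25 and 12.28 in WT. The genotypes overlapped nearly completely, with a difference of -0.013 (SE 0.08). H1f2, the subtype H1.2, had 11.99, 12.08 and 12.15 in Lxn-/- and 12.19, 12.27 and 12.04 in WT, a difference of -0.091 (SE 0.084). Here WT replicate 3 lay among the Lxn-/- values. The probe set that lists H1f4 together with H2bc6 differed by -0.054 (SE 0.068). Exact permutation p-values of H1f3, H1f2, H1f5 and H1f1 were 0.3, 0.4, 0.7 and 0.9.

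H2A members, whose protein pairs with H2B in the nucleosome, showed no common direction. Of 5 members, 3 were lower and 2 higher in Lxn-/-, with a median of -0.00049. H2ac4 had 9.06, 9.35 and 9.17 in Lxn-/- and 8.98, 9.32 and 9.78 in WT, so that WT held both the lowest and the highest array. The difference was -0.17 (SE 0.19, 95% confidence interval -0.60 to 0.26), with an exact permutation p of 0.7, and it was 0.041 without WT replicate 3.

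H2ac15, a core H2A gene on chromosome 13, had 13.31, 13.41 and 13.25 in Lxn-/- and 13.29, 13.37 and 13.41 in WT. The ranges overlapped, and the difference was -0.036 (SE 0.072). H2aw, the H2A gene of the Hist3 cluster, had 12.69, 12.90 and 12.92 in Lxn-/- and 12.79, 12.76 and 12.97 in WT, a difference of -0.00049 (SE 0.091). In 4 of the 5 H2A members WT replicate 3 was the highest array.

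H2ac8 and H2bc8, which share a promoter stretch, can be set side by side as a divergent pair. H2ac8 had 7.02, 7.13 and 6.93 in Lxn-/- and 6.94, 6.82 and 7.03 in WT, a difference of 0.096 (SE 0.083). H2bc8 had 11.32, 11.70 and 11.57 in Lxn-/- and 11.31, 11.53 and 11.53 in WT, a difference of 0.075 (SE 0.11). Genotypes overlapped for both genes, and in both Lxn-/- replicate 2 was the highest array.

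The other divergent pair with a probe set for each gene consists of the testis variants H2ac1 (TH2A) and H2bc1 (TH2B), which replace core histones during sperm formation. H2ac1 had 9.77, 9.81 and 9.87 in Lxn-/- and 9.63, 9.71 and 9.92 in WT, a difference of 0.062 (SE 0.088). H2bc1 had 7.92, 8.20 and 8.04 in Lxn-/- and 8.09, 7.96 and 8.43 in WT, a difference of -0.11 (SE 0.13). WT replicate 3 was the highest array for both, the genotypes overlapped, and the exact permutation p was 0.5 for H2ac1 and 0.6 for H2bc1.

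H2B held the 1 member at an unadjusted p under 0.05. Of 17 H2B members, 7 were lower and 10 higher in Lxn-/-, with a median of 0.016, and the 11 that list 1 gene divided into 6 lower and 5 higher. H2bc4 had 11.55, 11.55 and 11.71 in Lxn-/- and 11.52, 11.34 and 11.37 in WT. All Lxn-/- values lay above all WT values, with WT replicate 1 just under Lxn-/- replicates 1 and 2. This gave a difference of 0.19 (SE 0.081) with a 95% confidence interval of 0.0054 to 0.38, which is 1.14-fold, with an unadjusted p of 0.0451 and an adjusted p of 0.993 in limma, and 3.6% of the named probe sets were likewise higher without overlap. No member had an unadjusted p under 0.05 in limma without Lxn-/- replicate 3, where the H2bc4 difference was 0.14, or with all deposited probe sets fitted.

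H2bc21, an H2B gene of the Hist2 cluster, had 7.41, 7.69 and 7.70 in Lxn-/- and 7.57, 7.58 and 7.91 in WT. Lxn-/- replicate 1 was the lowest array and WT replicate 3 the highest, and the difference was -0.086 (SE 0.12). H2bc9 had 11.84, 12.03 and 11.79 in Lxn-/- and 11.70, 11.85 and 11.84 in WT, a difference of 0.087 (SE 0.085). Again the ranges overlapped, with Lxn-/- replicate 2 the highest array, without which the difference was 0.016.

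Among the 6 probe sets that list 14 or 15 H2B genes, 1 had a negative and 5 a positive difference, all between -0.0021 and 0.057. All 6 also list H2bc4, so its difference of 0.19 is that of the probe set listing it alone. Of the 6, a probe set listing 15 genes had 14.05, 14.15 and 14.01 in Lxn-/- and 14.02, 14.03 and 14.03 in WT. Its WT values lay within the Lxn-/- range, and the difference was 0.042 (SE 0.066). The remaining H2B members, H2bc22, H2bc18, H2bc3, H2bu2, H2bu1-ps and H2bc14, had differences from -0.081 for H2bc22 to 0.028 for H2bc14, with overlapping values in each case.

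H3 members listing the 12-gene family all had slightly lower means in Lxn-/-, and of the 3 members listing 1 gene 1 was lower and 2 were higher. All 10 of the 12-gene probe sets were lower, by -0.083 to -0.049 with a median of -0.065. The one with the most negative difference had 14.15, 14.30 and 14.29 in Lxn-/- and 14.22, 14.34 and 14.42 in WT. Lxn-/- replicate 1 was its lowest array and WT replicate 3 its highest, the genotypes overlapped, and the difference was -0.083 (SE 0.08) with an exact permutation p of 0.4.

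The next of these probe sets had 14.03, 14.26 and 14.19 in Lxn-/- and 14.10, 14.27 and 14.33 in WT, a difference of -0.075 (SE 0.09). The probe set with the highest mean signal of the class had 14.16, 14.33 and 14.29 in Lxn-/- and 14.23, 14.34 and 14.41 in WT, a difference of -0.066 (SE 0.079). In each of them the arrays stood in the same order at both ends, with Lxn-/- replicate 1 lowest and WT replicate 3 highest. Since they list the same 12 genes, their shared direction is that of 1 measured family. Without Lxn-/- replicate 1 the differences of these 3 probe sets were -0.035, -0.010 and -0.016, and without WT replicate 3 they were -0.037, -0.028 and -0.025.

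H3c15, an H3 gene of the Hist2 cluster on chromosome 3, had the largest difference in size of any member. It had 7.47, 7.96 and 7.64 in Lxn-/- and 7.40, 7.50 and 7.38 in WT. Lxn-/- replicates 2 and 3 lay above every WT value, and replicate 1 lay below WT replicate 2. This gave a difference of 0.26 (SE 0.12) with a 95% confidence interval of -0.016 to 0.54, which is 1.20-fold, and an exact permutation p of 0.2. Leaving out each array in turn gave 0.13 to 0.37. H3c15 is also listed in the 10 probe sets of the 12-gene family. Those went the other way, by -0.083 to -0.049, so the probe sets listing this gene disagree in direction.

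H3c7, another H3 gene listed alone, had 6.04, 5.98 and 5.87 in Lxn-/- and 5.84, 5.93 and 5.80 in WT, a difference of 0.11 (SE 0.073). These values lie below the bound for dim probe sets, and the genotypes overlapped. H3c4 had 9.32, 9.44 and 9.18 in Lxn-/- and 9.50, 9.25 and 9.28 in WT, a difference of -0.033 (SE 0.098). Both H3c7 and H3c4 are also listed in the 12-gene probe sets, all of which were lower in Lxn-/-. Over the whole class 11 of 13 members were lower in Lxn-/- with a median of -0.063, whereas the 3 members listing 1 gene had a median of 0.108, and with probe sets of the same genes averaged the class median was 0.037.

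H4 members were lower in Lxn-/- for 10 of 12, with a median of -0.026. H4c3 had 10.11, 10.68 and 10.42 in Lxn-/- and 10.48, 10.64 and 10.56 in WT. Lxn-/- replicate 1 was the lowest array and Lxn-/- replicate 2 the highest, with all WT values between them. The difference was -0.16 (SE 0.14, 95% confidence interval -0.47 to 0.15), with an exact permutation p of 0.5, and without Lxn-/- replicate 1 it was -0.012.

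H4c14, the H4 gene of the Hist2 cluster, had 12.04, 12.40 and 12.29 in Lxn-/- and 12.25, 12.28 and 12.48 in WT. Lxn-/- replicate 1 was again the lowest array, and the difference was -0.094 (SE 0.11). A probe set listing 11 H4 genes had 14.00, 14.20 and 14.10 in Lxn-/- and 14.06, 14.11 and 14.18 in WT, a difference of -0.016 (SE 0.075). H4f16, the single H4 gene of the Hist4 locus on chromosome 6, had 10.27, 10.52 and 10.29 in Lxn-/- and 10.23, 10.24 and 10.49 in WT, a difference of 0.039 (SE 0.10). For both, Lxn-/- replicate 2 was the highest array and the genotypes overlapped.

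The probe set listing H4c17 and H4c11, whose mean lay below the bound for dim probe sets, had 6.879, 6.996 and 6.893 in Lxn-/- and 7.057, 6.839 and 6.830 in WT, a difference of 0.014 (SE 0.083). H4c8 had 7.13, 7.70 and 7.43 in Lxn-/- and 7.39, 7.51 and 7.54 in WT, with Lxn-/- replicates 1 and 2 at the ends of the range. H4c6 had the same ends, with 11.55, 11.99 and 11.70 in Lxn-/- and 11.68, 11.82 and 11.83 in WT. The other H4 members, H4c4, H4c9 and 3 further probe sets of the 11-gene family, had differences from -0.088 for H4c4 to -0.014 for H4c9.

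**Figure D2:**
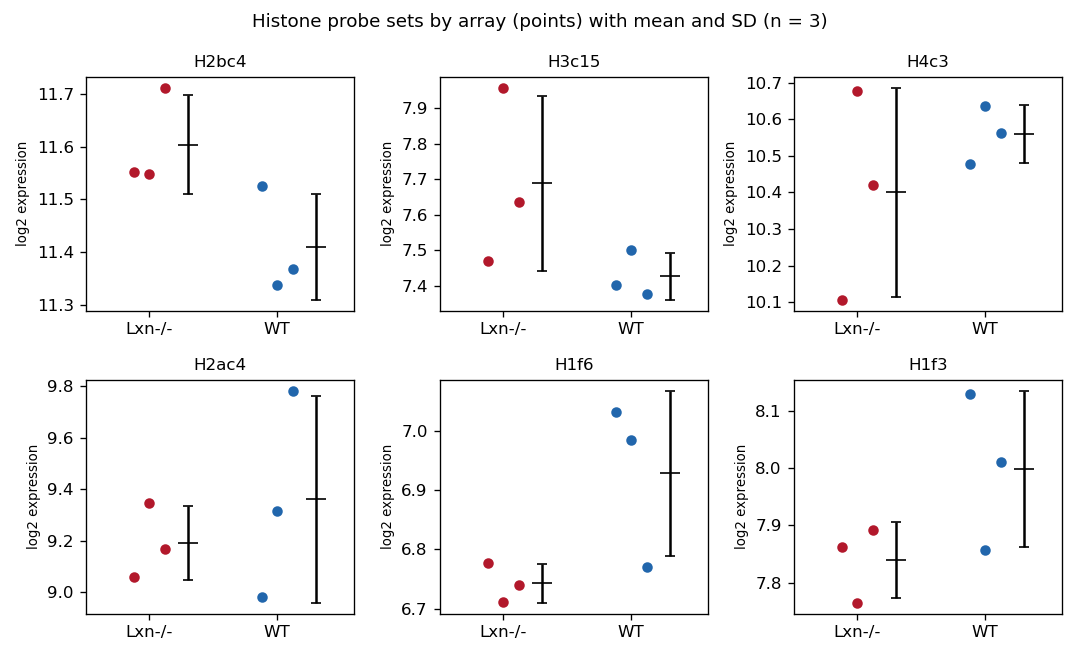
Log2 signal of named clustered histone members in each array, with Lxn-/- pools to the left of WT pools in each of 6 panels, points for single arrays and bars for the mean and SD of 3 arrays. H4c3 shows Lxn-/- replicate 1 at 10.11 and replicate 2 at 10.68 with the WT values between them, and H2bc4 shows Lxn-/- values of 11.55 to 11.71 above WT values of 11.34 to 11.52.

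By genomic cluster, the members were lower in Lxn-/- for 22 of 35 of the Hist1 cluster, 3 of 4 of Hist2, 2 of 3 of Hist3 and 0 of 1 of Hist4. The 10 probe sets listing H3 genes of both Hist1 and Hist2 were all lower. No cluster held a member that passed the adjusted test.

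The members also differed between the arrays of a genotype. Lxn-/- replicate 2 exceeded Lxn-/- replicate 1 in 48 of 53 members, among them 26 of the 31 listing 1 gene, against 46.4% of all named probe sets. The median gap between these arrays was 0.187 log2 units over the members and -0.012 over all named probe sets. By class the gap was positive for 3 of 5 H1 members, 5 of 5 H2A, 15 of 17 H2B, 12 of 13 H3 and 12 of 12 H4, with medians of 0.044, 0.106, 0.189, 0.178 and 0.244. Probe sets of one gene family share target genes and pools are few, so these counts describe the 6 arrays and carry no test.

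Seen over all arrays, Lxn-/- replicate 1 was the lowest of the 6 for 28 of 53 members, or 52.8%, against 16.5% of all named probe sets. Lxn-/- replicate 2 was the highest for 23, or 43.4%, against 12.0%, and WT replicate 3 was the highest for 19, or 35.8%, against 24.6%. Of the 31 members listing 1 gene, Lxn-/- replicate 1 was lowest for 10, or 32.3%, and Lxn-/- replicate 3 for 9. Lxn-/- replicate 2 was highest for 13 of these, and WT replicate 3 for 9. Among the 362 named probe sets with a mean of 13 or more, where many of the family probe sets lie, Lxn-/- replicate 1 was lowest for 22.7%, Lxn-/- replicate 2 highest for 13.8% and WT replicate 3 highest for 52.5%. These 362 include the histone members of that level, so they are not a separate background. In H4 Lxn-/- replicate 1 was lowest and Lxn-/- replicate 2 highest for 9 of 12 members each, and for 5 of the 7 listing 1 gene each. H2B had Lxn-/- replicate 2 highest for 11 of 17 members, and for 5 of the 11 listing 1 gene. In H3 Lxn-/- replicate 1 was lowest and WT replicate 3 highest for 10 of 13 each, all of them probe sets of the 12-gene family, whereas of the 3 members listing 1 gene these counts were 0 and 0 and WT replicate 3 was lowest for 2. H1 had no array at either end for more than 2 of 5.

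**Figure D3:**
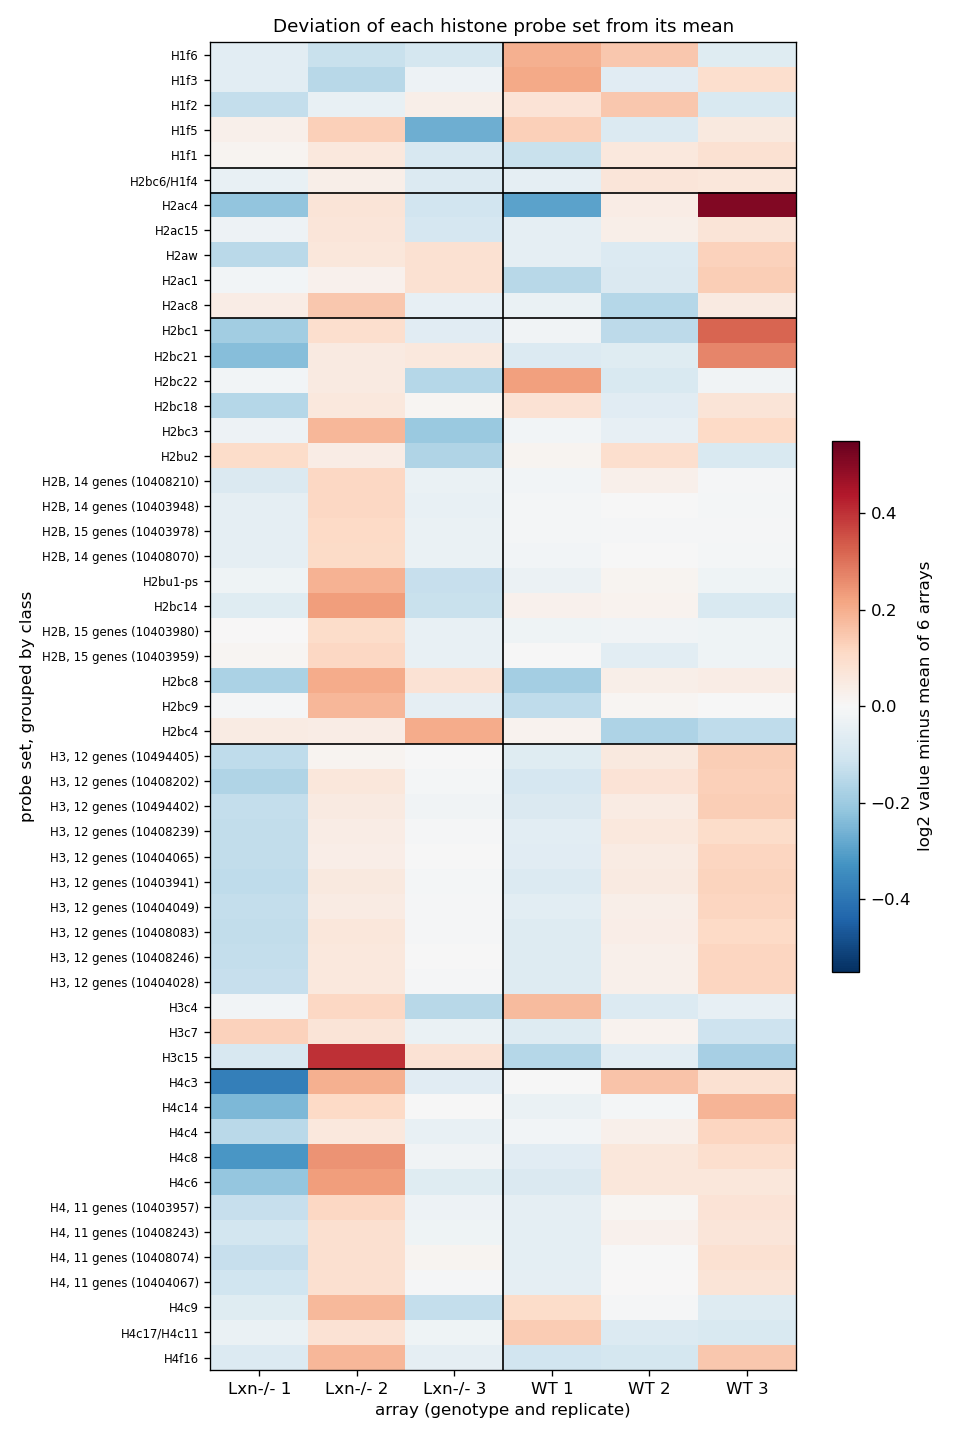
Deviation of each clustered histone member from its mean over the 6 arrays (log2 units), with Lxn-/- arrays left of WT arrays and members ordered by class. Lxn-/- replicate 1 is below and Lxn-/- replicate 2 above the mean for most H3 and H4 members.

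Averaged by class, the deviations from the 6-array mean have Lxn-/- replicate 1 lowest and Lxn-/- replicate 2 highest for H4, H3 and H2B. This was not so for H1 or H2A. H4 members averaged -0.16, 0.14 and -0.036 in Lxn-/- replicates 1, 2 and 3 and -0.022, 0.013 and 0.069 in WT replicates 1, 2 and 3. H3 members averaged -0.10, 0.082 and -0.014 in Lxn-/- and -0.058, 0.027 and 0.067 in WT. In both classes, and in H2B, the averages of Lxn-/- replicates 1 and 2 enclosed those of all WT arrays. Most single H3 members did not follow their class average. WT replicate 3 was the highest array for 10 of 13 H3 members, and Lxn-/- replicate 2 for 1.

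H2B members averaged -0.056, 0.12 and -0.045 in Lxn-/- and -0.011, -0.027 and 0.022 in WT. H2A members averaged -0.074, 0.075 and -0.015 in Lxn-/- and -0.12, -0.047 and 0.18 in WT, where the WT arrays were the more spread. H1 was the class whose averages did not overlap, with -0.041, -0.026 and -0.090 in Lxn-/- and 0.098, 0.044 and 0.016 in WT. The 5 genes each overlapped, and H1f6, with the most negative difference, lay below the bound for dim probe sets. Single values did not overlap for 8.98% of named probe sets, and the class averages were not tested. Over all 53 members the averages were -0.092, 0.094 and -0.038 in Lxn-/- and -0.025, 0.0018 and 0.059 in WT.

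Other genes of the histone supply pathway differed little between genotypes, and 0 passed the adjusted test. Of 26 genes listed for histone gene transcription and stem-loop processing, which include Npat, the coactivator of histone genes, and Slbp, 25 were measured, with 17 lower and 8 higher in Lxn-/- and a median of -0.030. The lowest unadjusted p-values were those of Mybl2, a transcription factor of cycling cells, and Snapc1, a subunit of the small nuclear RNA activating complex. Mybl2 had 9.99, 10.36 and 9.94 in Lxn-/- and 10.11, 10.24 and 10.44 in WT, a difference of -0.17 (SE 0.13). Snapc1 had 8.85, 8.74 and 8.85 in Lxn-/- and 8.84, 8.75 and 8.43 in WT, a difference of 0.14 (SE 0.11). The genotypes overlapped for both genes.

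The replacement variants, which can also be made outside S phase and are not encoded in the clusters, were measured for 13 of 18 listed genes. Of these 6 were lower and 7 higher, with a median of 0.0065. H2ax, whose protein is phosphorylated at DNA breaks, had 9.93, 10.20 and 9.82 in Lxn-/- and 10.05, 10.17 and 10.13 in WT, a difference of -0.14. H2az2, a variant of H2A at promoters, had 11.18, 11.06 and 11.15 in Lxn-/- and 11.30, 11.15 and 11.15 in WT, a difference of -0.073. Neither set of values separated the genotypes. Averages of the variants lay within 0.033 of their 6-array mean in every array, a narrower span than the -0.092 to 0.094 of the clustered members.

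Histone chaperones, which carry histones to DNA, were measured for 22 of 26 genes, with 11 lower, 11 higher and a median of -0.0063. Asf1b, a chaperone of H3 and H4, had 10.66, 10.85 and 10.53 in Lxn-/- and 10.67, 10.89 and 11.08 in WT, a difference of -0.20. Dnajc9, a heat shock co-chaperone of H3 and H4, had 9.96, 10.07 and 9.95 in Lxn-/- and 10.05, 10.10 and 10.18 in WT, a difference of -0.12. Both overlapped between genotypes.

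Genes of the cell cycle stages at which histones are made and segregated were mostly lower in Lxn-/- without passing the test. For DNA replication 45 of 46 listed genes were measured, with 33 lower, 12 higher and a median of -0.045. Rrm2, a subunit of ribonucleotide reductase, had 10.75, 10.94 and 10.53 in Lxn-/- and 10.78, 10.87 and 11.30 in WT, a difference of -0.25. Tk1, thymidine kinase, had 9.64, 9.98 and 9.59 in Lxn-/- and 9.77, 9.96 and 10.11 in WT, a difference of -0.21. Both genes overlapped between genotypes.

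For mitosis and G2/M 37 of 38 listed genes were measured, with 35 lower, 2 higher and a median of -0.15. Ube2c, which helps degrade mitotic cyclins, had 10.48, 10.68 and 10.30 in Lxn-/- and 10.62, 10.70 and 10.99 in WT, a difference of -0.29. Bub3, a spindle checkpoint protein gene, had 10.42, 10.57 and 10.50 in Lxn-/- and 10.60, 10.61 and 10.80 in WT, a difference of -0.18 without overlap, as in 5.38% of the named probe sets in that direction. On average, mitosis genes deviated by -0.082, 0.11 and -0.24 in Lxn-/- and by -0.051, 0.071 and 0.20 in WT, and replication genes by 0.011, 0.059 and -0.14 in Lxn-/- and by -0.057, 0.030 and 0.093 in WT. Like the core histones, mitosis genes were higher in Lxn-/- replicate 2 than in Lxn-/- replicate 1, but their lowest array was Lxn-/- replicate 3, where the clustered members averaged -0.038.

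Markers of other marrow cells also differed between the arrays. All 12 measured erythroid markers of 18 listed were above the bound for dim probe sets, and they averaged -0.21, 0.20 and -0.44 in Lxn-/- and -0.10, 0.073 and 0.48 in WT. T and NK cell markers, 9 of 10 measured and 7 above the bound, averaged -0.21, 0.54 and -0.20 in Lxn-/- and -0.093, -0.19 and 0.15 in WT. In both lists Lxn-/- replicate 2 was above Lxn-/- replicate 1, as for the histone members. The part of these cells in the histone values was not tested.

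Neutrophil markers, all 14 measured and above the bound, averaged 0.24, -0.72 and 0.94 in Lxn-/- and 0.63, 0.18 and -1.26 in WT. S100a8, an abundant neutrophil protein gene, had 11.08, 9.94 and 11.82 in Lxn-/- and 11.50, 10.67 and 8.42 in WT. B cell markers, 13 of 14 measured and all above the bound, averaged -0.20, -0.075 and -0.25 in Lxn-/- and 0.24, -0.10 and 0.38 in WT. LT-HSC markers averaged -0.044, -0.021 and 0.15 in Lxn-/- and -0.093, -0.0088 and 0.015 in WT. The neutrophil list was lowest in the arrays that were most often the highest for histone members, Lxn-/- replicate 2 and WT replicate 3, and its part in the histone values was not tested.

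Differences between genotypes in these lists did not pass the adjusted test for any gene. The median was -0.28 for erythroid markers with 12 of 12 lower, where Alas2, a heme synthesis enzyme of red cells, differed by -0.27 and Trim10 by -0.24. It was -0.37 for B cell markers with 12 of 13 lower, where Pou2af1, a B cell coactivator, differed by -0.74 and Ighm, the IgM heavy chain, by -0.38. Values of 3 of the 13, Pou2af1 and Ighm among them, were lower without overlap, against 5.38% of the named probe sets. In limma 5 of the 13 had an unadjusted p under 0.05, against 3.9%. The list was chosen with earlier results of these data known. Of the neutrophil markers 10 of 14 were higher, with a median of 0.47, among them S100a8 at 0.75 and Camp, an antimicrobial peptide gene, at 0.46. For T and NK cell markers the median was 0.057 with 7 of 9 higher, among them the NK receptor gene Klrb1c at 0.31 and Cd3d, a chain of the T cell receptor complex, at 0.13. Of the LT-HSC markers 7 of 8 were higher, with a median of 0.055, among them Meis1 at 0.13 and Procr at 0.10.

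**Figure D4:**
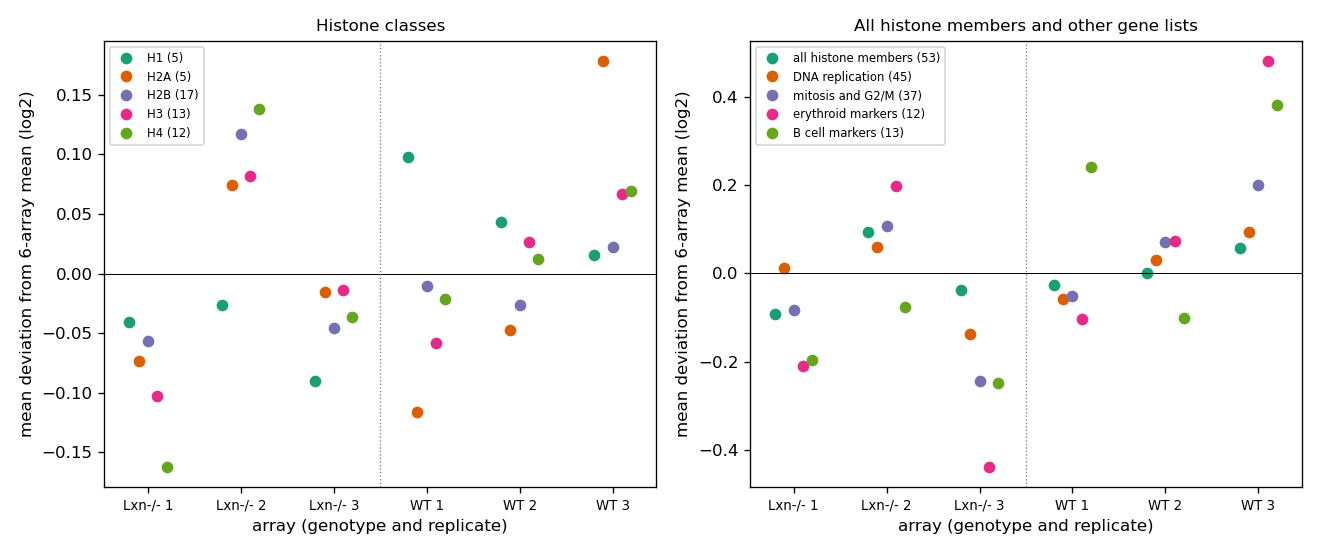
Mean deviation from the 6-array mean (log2 units) by array, with Lxn-/- arrays left of WT arrays, of each histone class (left panel) and of all histone members, replication, mitosis, erythroid and B cell genes (right panel, on a wider scale). H4 averages run from -0.16 in Lxn-/- replicate 1 to 0.14 in Lxn-/- replicate 2, and erythroid averages from -0.44 in Lxn-/- replicate 3 to 0.48 in WT replicate 3.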

How the data were processed

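The submitters hybridised RNA of 6 sorted pools, 3 Lxn-/- and 3 WT, to Affymetrix MoGene 1.0 ST arrays. The deposited log2 values were normalized by RMA per the series' design text, and the submitters' processing notes name RMA and Partek 6.0. The sources used here give neither the background step nor the probe set definitions. Probe sets were named from GEO's platform annotation and a RefSeq gene table of GRCm38.p6, which gave 21789 probe sets 1 symbol and 1621 several.

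All 23410 named probe sets were fitted with limma 3.58.1 in R 4.3.3 (lmFit and eBayes, no covariates, two-sided, Benjamini-Hochberg threshold 0.05), Lxn-/- minus WT. Errors are limma's moderated standard errors. Each histone member and Lxn also had an exact permutation test, two-sided, over the 6 arrays, and the genes of the other lists did not. The step was tested on simulated data. Members were given by array if they passed, or had the 2 most negative or 2 most positive differences or the highest mean of their class. H1f2, H2aw, H2bc8, H3c4, H4c8 and H4c6 were added after their values were seen. From each list the 2 genes of lowest unadjusted p were named. The members and the lists (histone transcription and processing, variants, chaperones, DNA replication, mitosis, and LT-HSC, erythroid, B cell, neutrophil, and T and NK markers) were chosen with earlier results of these data known. Alternatives changed the normalization, centring, array weights, probe sets tested, dim filter, variance model, replicate block, family probe sets and arrays kept.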

Additional observations from a re-analysis of the deposited data

How the results depend on the processing

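No member passed the adjusted threshold with all 6 arrays or under any of the 13 alternatives to the fit, and 0 of the named probe sets did; the lowest adjusted p in limma was 0.993 with all arrays and 0.134 under the alternatives (0.628 among members), and 526 to 1807 probe sets had an unadjusted p under 0.05, against 914. Members with an unadjusted p under 0.05 numbered 0 to 2, with 0 without Lxn-/- replicate 3 and with all deposited probe sets. Of 296 values of the 23 members named by the rule, 273 kept their direction, and 12 members kept it throughout. The count of members lower in Lxn-/- (37 of 53) was 34 with quantile normalization, 45 with a common array median, 33 with array weights and 23 to 45 leaving out 1 array, with 23 without Lxn-/- replicate 1, 29 without WT replicate 3 and 45 without Lxn-/- replicate 2. It was 21 of 31 over members listing 1 gene and, in a setting chosen after seeing the data, 24 of 37 with probe sets of the same genes averaged. These last settings gave an H3 median of 0.108 and 0.037, against -0.063, as 10 of 13 H3 probe sets list the same genes. With the 3 partly matching probe sets added, also chosen after seeing the data, 40 were lower.

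Leaving out 1 array, the median of all members ran from -0.091 to 0.0064, of H1 from -0.15 to -0.077, of H2A from -0.032 to 0.073, of H2B from -0.041 to 0.053, of H3 from -0.11 to -0.010 and of H4 from -0.099 to 0.032. Members whose direction turned ran from -0.16 to 0.043 (H1f5), -0.076 to 0.029 (H1f1), -0.36 to 0.041 (H2ac4), -0.078 to 0.0022 (H2ac15), -0.20 to 0.027 (H2bc1), -0.15 to 0.027 (H2bc21), -0.17 to 0.0064 (H4c14), -0.065 to 0.033 (the 11-gene H4 probe set), -0.025 to 0.088 (H4c17/H4c11) and -0.042 to 0.12 (H4f16). Members that kept their direction but moved by over 1.5 times include H1f3 (-0.23 to -0.094), H2ac1 (0.0012 to 0.15), H2ac8 (0.041 to 0.14), H2bc9 (0.016 to 0.13), the 15-gene H2B probe set (0.0017 to 0.073), H3c7 (0.072 to 0.15), H3c15 (0.13 to 0.37) and H4c3 (-0.30 to -0.012). Array weights turned H1f5 to 0.011, quantile normalization turned H4c17/H4c11 to -0.0067, and a common array median turned H4c17/H4c11 to -0.031, H4f16 to -0.0061 and the 15-gene H2B probe set to -0.0029; the cause was not tested. A common array median moved the median of all named probe sets to -0.055, against -0.0099.

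Replicate numbers were shared by the genotypes in the labels, but same-numbered arrays deviated together with correlations of 0.37, -0.072 and -0.081, and not every array correlated best with its own number. With the replicate number as a block, 0 members passed, 37 were lower and the median stayed at -0.033, with 1173 probe sets at an unadjusted p under 0.05.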
